A study of Mus musculus with 3 samples.

Results

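ESRRA, the estrogen-related receptor alpha, was bound at or near gene promoters in 489 of the 1639 regions of its ChIP-seq peak list from mouse duodenal villi, or 29.8% (95% Wilson interval, 27.7 to 32.1). A promoter peak is defined here by distance alone: the middle base of the peak lay within 1 kb of the start site of any annotated transcript in the mm9 genome. Motifs, base composition and gene function were not part of that rule. The data come from adult villus cells of the duodenal epithelium of WT C57BL/6 mice fed regular chow, assayed in 2 libraries made with an Esrra antibody and 1 library of input chromatin. The authors merged both ChIP libraries before calling peaks, so no value below has a replicate error, and intervals cover counting error over peaks, genes or sites only. Each peak was 0.601 kb wide and carried no height, read depth or p-value, so that a weak and a strong peak counted alike. A list of binding regions holds no expression values, so the villus label could not be checked against marker genes. How many animals stand behind each library is not given in the sources used here.

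ESRRA is an orphan nuclear receptor, active without estrogen, that works with coactivators of the PGC-1 family. It contacts DNA at an extended half-site, TCAAGGTCA, whose inner part AAGGTCA is called the ESRR half-site below. In heart, muscle and brown fat it is known for switching on genes of the respiratory chain, the tricarboxylic acid cycle and fatty acid oxidation. The villus carries the absorptive enterocytes of the gut, which take up sugars and lipids across their brush border. Genes of both programs were among the promoters bound here.

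The 27 bases around the ESRR site, or a partial match to it, are shown for promoters from the main metabolic and absorptive groups, with and without a half-site. They are read 5′ to 3′ on the strand that carries the site, with the 9 bases aligned to TCAAGGTCA in capitals and mm9 coordinates before each.
Ndufb4, chr16:37654825-37654851, + strand: tgtcattagTCAAGGTCAttagtgtct
Sdhd and Timm8b, chr9:50411901-50411927, + strand: ttcgagggcTCAAGGTCActctacaac
Cox6c, chr15:35867553-35867579, + strand: acgacccaaTCAAGGTCAacctggccg
Atp5g3, chr2:73749418-73749444, + strand: ggaagacgcTCAAGGTCActttgtaac
Atp5b, chr10:127520543-127520569, - strand: ggcccaagcTCAAGGTCAcggggagaa
Idh3a, chr9:54434529-54434555, + strand: gggacggcgTCAAGGTCAaggcggcca
Gapdh, chr6:125115160-125115186, - strand: aaggagaccTCAAGGTCAgcgctcgga
Acadm, chr3:153607931-153607957, - strand: ctctccaagTAAAGGTCAcagctgact
Cox7a2, chr9:79607298-79607324, + strand: cgagtggacGGAAGGTCAgggaaaagg
Abhd11, chr5:135485696-135485722, + strand: aacgccgatCTGAGGTCAgccaagggc
Apoc3, chr9:46043870-46043896, + strand: agagaaggaCAAAGGTCAcatggaacc
Slc2a2, chr3:28597359-28597385, - strand: agagtcagcCCAAGGTCAtagtccccc
Mgam, chr6:40592753-40592779, + strand: ttaatatttTCAAAATAAgatgtagga
Counting from 1 at the 5′ end of TCAAGGTCA, the best-placed site at Acadm differed by C2A and that at Cox7a2 by T1G and C2G, so both kept AAGGTCA. The half-site was also kept at Apoc3 (T1C and C2A), an apolipoprotein gene, and at Slc2a2 (T1C), which encodes a glucose transporter. At Abhd11 the changes T1C, C2T and A3G left AGGTCA only, and another stretch of the peak matched TCAAGGTCA more closely, with 2 changes. At Mgam, the gene of the brush-border enzyme maltase-glucoamylase, the closest match of all carried G5A, G6A and C8A, and no half-site was present.

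The promoter of Esrra itself was among the members. Its peak was centred 421 bp upstream of the start site and held 2 ESRR half-sites, 1 of them the full TCAAGGTCA. Both lie on the + strand within the following 120 bases at chr19:6996780-6996899, which no annotated exon touches, with the 9 bases of each site in capitals.
Esrra: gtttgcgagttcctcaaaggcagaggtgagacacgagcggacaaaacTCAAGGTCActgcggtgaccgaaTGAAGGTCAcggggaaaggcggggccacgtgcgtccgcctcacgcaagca

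Promoter peaks lay downstream of the start site more often than upstream of it. With the sign taken along the direction of transcription, 317 midpoints (64.8%; 60.5 to 68.9) were downstream of the nearest start and 170 (34.8%; 30.7 to 39.1) upstream, and 2 fell on the start base. The median position was 149 bp downstream, with quartiles at -151 and 394 bp. Within the 1 kb set by the rule, 244 midpoints were within 300 bp of the nearest start and 349 within 500 bp. The fullest bin of 200 bp, from the start to 200 bp downstream, held 109 midpoints, against 55 in the matching bin upstream.

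**Figure D1:**
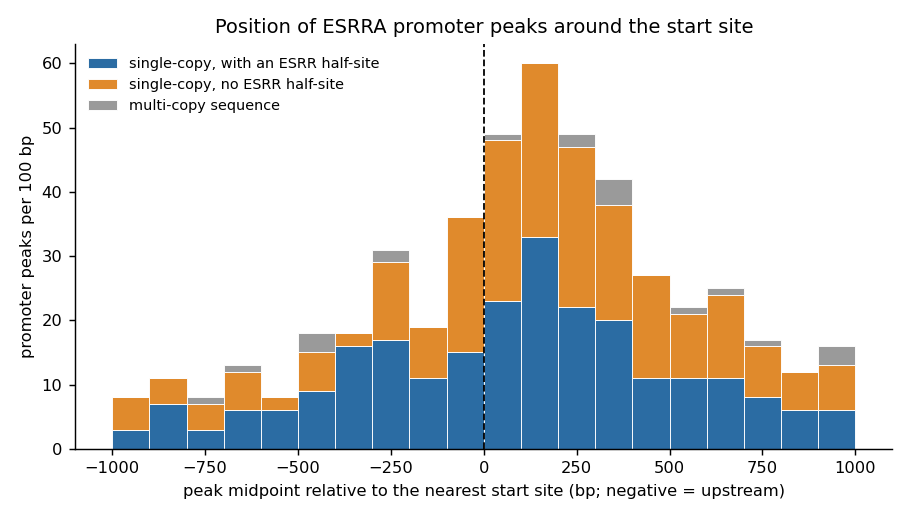
Position of the 489 promoter peaks: the horizontal axis gives the distance of the peak midpoint from the nearest start site in bp (negative, upstream), the vertical axis the number of peaks per 100 bp. Colours separate single-copy peaks with and without an ESRR half-site from multi-copy peaks; the distribution is highest just downstream of the start, with its median at 149 bp.

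Because GENCODE lists many transcripts per gene, the nearest start was the 5′ end of the gene in 262 peaks and a start inside the gene in 227, of which 76 were more than 1 kb inside. The midpoint was downstream in 168 of the 227 with an internal start and in 149 of the 262 with the 5′ end. These shares are a description, since a peak upstream of a whole gene can have no internal start as its nearest. Counted from 5′ ends alone, which left 404 peaks, 288 (71.3%; 66.7 to 75.5) were downstream and 116 (28.7%) upstream. The midpoint of 196 promoter peaks was in an intron, that of 82 in a coding exon, that of 67 in an untranslated exon and that of 50 in an exon of another transcript type, while 94 were outside annotated genes.

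Just inside the 1 kb limit lay the peaks at Bad (994 bp downstream), Clca6 and Tmem171 (both 999 bp downstream). Just outside were those at Cep70, Phospho1 and Atp2a1, 1007, 1008 and 1009 bp upstream.

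Most promoter peaks sat at promoters that serve one gene direction. This was so for 424 peaks (86.7%; 83.4 to 89.4). Another 41 (8.38%; 6.24 to 11.2) were at bidirectional promoters, where 2 genes start on opposite strands and run away from each other, and 24 were at genes on opposite strands that overlap. For scale, 11.6% of all protein-coding genes had a divergent start within 1 kb of their 5′ end. That is a share of genes counted from 5′ ends and not of peaks counted from midpoints, so it is not directly comparable with the 8.38%. In the bidirectional peaks, both starts had to lie within 1 kb of the midpoint. The distance between divergent starts had a median of 150 bp and ranged from 3 to 1144 bp. In 28 of the 41 at least 2 of the genes were protein-coding.

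Several of these shared promoters had a mitochondrial gene on one side. The pairs included Ndufs1, the largest subunit of complex I, with the translation factor gene Eef1b2, and Sdha, the flavoprotein of complex II, with Ccdc127. Sdhd, a membrane anchor of complex II, shared its promoter peak with Timm8b, which encodes a chaperone of protein import, so that both genes were mitochondrial. The single TCAAGGTCA of this peak lay in an exon, 40 bp downstream of the Sdhd start. Atp5c1 and Kin, Cox4i1 and Cox4nb, Uqcr10 and Zmat5, and Uqcrq and Gdf9 were further pairs, each with AAGGTCA but not TCAAGGTCA. Apart from the mitochondrial genes, Retsat, which encodes a retinol saturase, was paired with Elmod3, also with AAGGTCA but not TCAAGGTCA. No ESRR half-site was present at Ndufs1 and Eef1b2 or at Ndufb9 and Tatdn1.

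The bound promoters belonged to 465 protein-coding genes, or 2.08% of the 22367 annotated. A protein-coding gene started within 1 kb of the midpoint in 443 peaks, and 415 peaks had 1 gene of any type in reach, 71 had 2 and 3 had 3. Peaks are not separate genes: Gapdh, Cs, Tpi1, Dgat1, Apob and Slc5a1 each had 2 promoter peaks.

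Of the lists examined, those of oxidative phosphorylation subunits had the highest shares. Of 80 listed genes of the respiratory chain and ATP synthase, 46 (57.5%; 46.6 to 67.7) had a promoter peak, beside the 2.08% of all protein-coding genes. These lists, like the others, were drawn up when results of these data were known, and the shares are given as a description. By complex, the count was 14 of 36 for complex I, 9 of 14 for complexes II and III with cytochrome c, 10 of 13 for complex IV and 13 of 17 for ATP synthase. Of these 46 genes, 39 had a midpoint within 300 bp of a start, and 37 midpoints were downstream, 8 upstream and 1 on the start base of Atp5g3, which encodes subunit c of the rotor ring. The median was 140 bp downstream and the range ran from 303 bp upstream at Ndufb4 to 658 bp downstream at Cox7b.

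**Figure D2:**
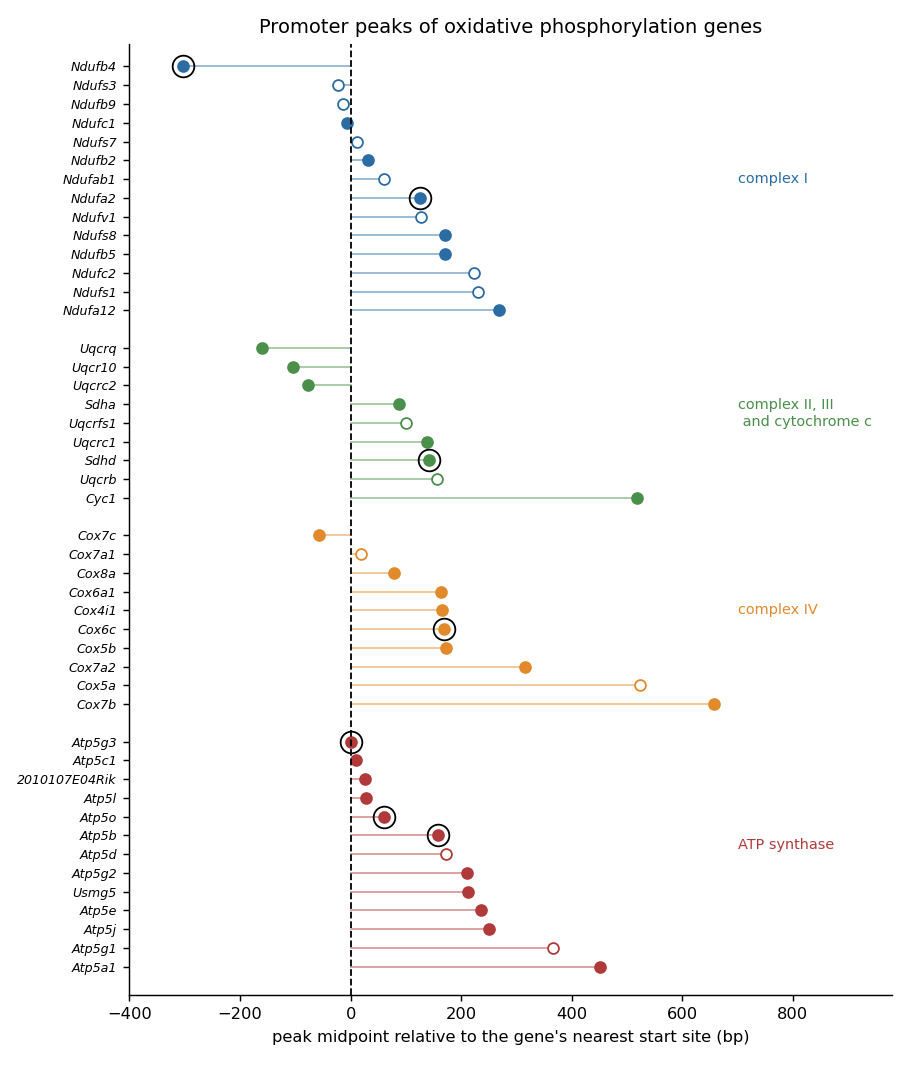
Promoter peaks of the 46 oxidative phosphorylation genes: each row is a gene and the horizontal axis gives the peak midpoint relative to its nearest start site in bp. Filled points mark peaks with AAGGTCA, open points those without, and black rings those with TCAAGGTCA; 37 of the 46 points are downstream of the start.

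An ESRR half-site was present in 33 of these 46 peaks (71.7%) and the full TCAAGGTCA in 7. Over all single-copy promoter peaks the shares were 52.0% and 17.5%, and the difference was not tested. Complex I had the half-site at 7 of its 14 bound genes. Ndufb4, an accessory subunit of the membrane arm, carried 3 half-sites, 2 of them extended, and Ndufs8, an iron-sulfur subunit, carried 3 as well. No half-site was found at Ndufs1, Ndufs3, Ndufs7, Ndufv1, Ndufab1, Ndufb9 and Ndufc2, though each peak was within 230 bp of a start.

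In complexes II and III, 7 of the 9 bound genes had a half-site. Sdhd had the extended form. Uqcrc1, Uqcrc2, Uqcrq, Uqcr10 and Cyc1, subunits of the cytochrome bc1 complex, each had 1 AAGGTCA, while Uqcrfs1, the Rieske protein, and Uqcrb had none.

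Complex IV, cytochrome c oxidase, had half-sites at 8 of 10 genes. Cox6c was the member with TCAAGGTCA, 29 bp from a midpoint that lay 169 bp downstream of the start. Cox7a2 had its peak 315 bp downstream, in an intron, with the GGAAGGTCA shown above 34 bp from the midpoint. Cox5a and Cox7a1 had none.

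ATP synthase had half-sites at 11 of 13 genes, and no bound gene of this complex had its midpoint upstream. The extended site was present at Atp5g3, Atp5o and Atp5b, 92, 23 and 36 bp from the midpoint. Atp5e, the epsilon subunit of the catalytic head, held the most half-sites of all promoter peaks, 4 within its 0.601 kb. Atp5d and Atp5g1 had a peak without one.

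Upstream of the respiratory chain, 7 of 31 genes of the tricarboxylic acid cycle, pyruvate dehydrogenase and lipoate metabolism had a promoter peak, among them Abhd11, Cs, Dld, Idh3a, Ogdh and Pdhb. Citrate synthase, Cs, had 2 peaks, 435 bp upstream and 603 bp downstream, each with an AAGGTCA. At Idh3a, the catalytic subunit of isocitrate dehydrogenase, TCAAGGTCA lay 159 bp from a midpoint 383 bp downstream of the start. Abhd11, a mitochondrial hydrolase linked to lipoylation, had a peak with no AAGGTCA in it. Its midpoint was 58 bp past the nearest start, which lay 554 bp inside the gene. Fatty acid oxidation had 2 of 21 genes, Acadm and Etfa, both with a half-site. Acadm encodes medium-chain acyl-CoA dehydrogenase and its peak lay 216 bp upstream.

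Not every mitochondrial or housekeeping group stood far above the background of 2.08%. Mitochondrial ribosomal proteins had 5 of 76 genes (6.58%) and cytosolic ribosomal proteins 1 of 80 (1.25%), which was Rpl8. Among 17 estrogen-related receptor and mitochondrial biogenesis genes the bound ones were Esrra and Gabpa, a subunit of an ETS-family factor. The Gabpa peak is shared with Atp5j on the opposite strand, so it cannot be assigned to either gene from its position.

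Glycolysis had 7 of 21 genes (33.3%), 5 of them with AAGGTCA and 3 with TCAAGGTCA. The extended site was at Aldoa, Gapdh and Pgam1, which encode aldolase, glyceraldehyde-3-phosphate dehydrogenase and phosphoglycerate mutase. It was 242, 84 and 257 bp from the midpoint, so that it stood near the edge of the peak in Aldoa and Pgam1. Pkm2, a pyruvate kinase gene, had a peak without a half-site.

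Genes of the absorptive program were also bound at promoters, and the number of these genes with a half-site is given below beside the 52.0% of all single-copy promoter peaks that held one. The difference between the gene groups was not tested. Of 34 genes of brush border digestion and transport, 9 (26.5%) had a promoter peak, namely Alpi, Anpep, Ezr, Mgam, Sis, Slc2a2, Slc5a1, Slc9a3 and Vil1. Not all of these starts were the 5′ end of the gene. The nearest start lay 13999, 9677 and 5858 bp inside the gene at Mgam, Vil1 and Anpep, and 27428 bp inside at a Slc5a1 peak. At Sis it lay 997 bp inside, and at Alpi, Slc2a2 and another Slc5a1 peak within 114 bp of the 5′ end. The half-site was found at Slc2a2 and Slc9a3, which encode a basolateral glucose transporter and a sodium-proton exchanger. It was absent at Slc5a1, the apical sodium-glucose cotransporter, at the sucrase-isomaltase gene Sis and at Vil1, the microvillus protein villin. In dietary lipid absorption, 7 of 33 genes (21.2%) were bound. Among these Apoc3, with 2 half-sites and a midpoint 38 bp upstream, and Dgat1 had AAGGTCA, and Apoa1, Apob, Fabp1, Mttp and Rbp2 did not. The nearest start at Mttp was 12011 bp inside the gene, while those at Apoa1, Apoc3, Fabp1 and Rbp2 were within 141 bp of the 5′ end. Apob and Dgat1 each had peaks at different starts, so not all of their starts were the 5′ end. One Apob peak was centred in a coding exon, 741 bp upstream of its nearest start. Of 31 enterocyte transcription factor genes, Creb3l3, Gata4, Hnf4g, Maf, Ppara and Thra were bound, with a half-site at Gata4 and Ppara. The nearest start lay 126120 bp inside the gene at Hnf4g, 6968 bp inside at Creb3l3 and 698 bp inside at Maf.

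**Figure D3:**
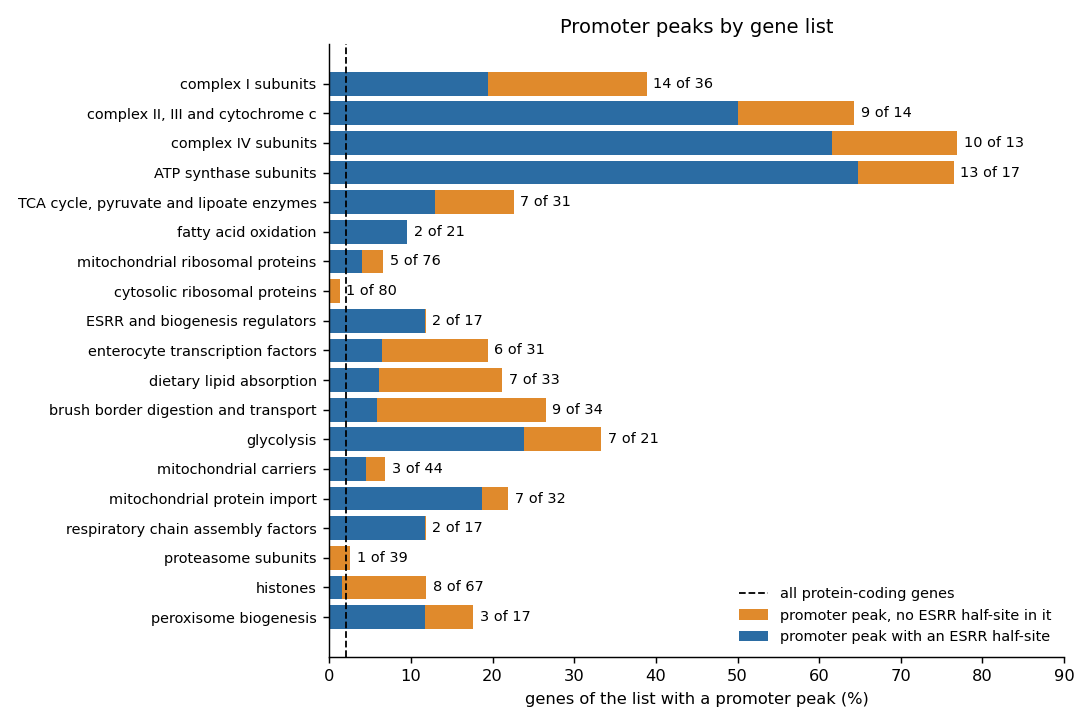
Percent of the genes of each list with a promoter peak (horizontal axis, from 0), with the part whose peak holds an ESRR half-site in blue and the counts beside each bar. The dashed line is the share of all protein-coding genes, 2.08%; the bottom 6 lists, from mitochondrial carriers down, were chosen after the bound genes were seen.

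The neighbours and base composition of these peaks are given as counts, since the lists were drawn up with results known and were not tested against each other. At oxidative phosphorylation genes 43 of 46 promoter peaks had no other ESRRA peak within 30 kb, and 40 of 46 had CpG-island-like sequence, meaning a GC content over 50% and an observed to expected CpG ratio over 0.6. Over all single-copy promoter peaks, 310 of 469 had no other peak within 30 kb and 220 of 469 (46.9%) were CpG-island-like. At brush border genes all 10 peaks had a neighbour within 30 kb and 1 was CpG-island-like, and at lipid absorption genes all 9 had a neighbour and 0 were CpG-island-like. Some of these neighbours are themselves members, such as the pair of peaks at Slc5a1, the pair at Dgat1, and those at Apoa1 and Apoc3 in one gene cluster.

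Over all promoter peaks with single-copy sequence, isolated peaks held the half-site more often. AAGGTCA was present in 188 of 310 isolated ones (60.6%; 55.1 to 65.9) and in 56 of 159 with another peak within 30 kb (35.2%; 28.2 to 42.9), an odds ratio of 2.83 (adjusted p = 1.0e-06 in a Fisher's exact test added after the data were seen). Promoter peaks had such a neighbour less often than other peaks, 159 of 469 (33.9%) against 376 of 846 (44.4%; odds ratio 0.641, adjusted exact p = 7.7e-04). With multi-copy peaks included the odds ratio was 0.977 (exact p = 0.87), so this difference depended on leaving them out. Peaks close together at one gene, such as those at Gapdh or Tpi1, counted as separate units in these tests. The p-values can therefore be too small.

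Single-copy means that the 24-base words of a peak had a median of at most 10 copies in the genome. This left 469 of the 489 promoter peaks and 846 of the other 1150. Of the 20 multi-copy promoter peaks, 16 lay in one stretch, chr9:3000197-3038305, at predicted genes such as Gm10721 and Gm10717. Their GC content was 34.3 to 36.6% and 0 of the 16 held AAGGTCA. The highest copy number, a median of 85.0, was at Gm13394. Reads from such sequence cannot be placed with certainty, and these peaks are left out of the sequence comparisons below unless stated.

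Promoter peaks carried the ESRR half-site about as often as other peaks. AAGGTCA was present in 244 of 469 (52.0%; 47.5 to 56.5) and in 432 of 846 (51.1%; 47.7 to 54.4), with an odds ratio of 1.04 (Fisher's exact p = 0.77). For TCAAGGTCA the shares were 17.5% and 17.8%. Windows of the same length around the 5′ ends of 22360 protein-coding genes held AAGGTCA in 7.82% and TCAAGGTCA in 0.756%. Adding the multi-copy peaks raised the odds ratio to 1.42 (exact p = 0.0013).

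The half-site was missing from many promoter peaks, 225 having 0, 187 having 1, 47 having 2 and 10 having 3 or more. Allowing 1 mismatch to TCAAGGTCA brought the share to 56.1%, against 54.5% of other peaks and 13.6% of gene windows. Of 311 half-sites with both preceding bases in the peak, TC stood before 28.3% and CC before 25.7%. At promoters with one gene direction 133 of 272 half-sites (48.9%; 43.0 to 54.8) were on the strand of the gene. A pair of AGGTCA in direct repeat with no base between was present in 7 promoter peaks, and with 1 base between in 2.

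Half-sites gathered near the middle of the peaks. Taking the nearest in each of the 244 peaks, the median distance from the midpoint was 64.0 bp. Of all 312 half-sites in promoter peaks, 116 (37.2%; 32.0 to 42.7) lay within 50 bp of the midpoint, against 241 of 684 (35.2%; 31.7 to 38.9) in other peaks (exact p = 0.57). The closest extended sites were at Psmc3ip, centred on the midpoint itself, at Synpo and the predicted gene AL645470.1, 1 bp away, and at Ndufb4, Srxn1, Pex5 and Mllt6, 4 to 7 bp away. Srxn1 encodes the antioxidant enzyme sulfiredoxin and Pex5 the receptor for import into peroxisomes.

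**Figure D4:**
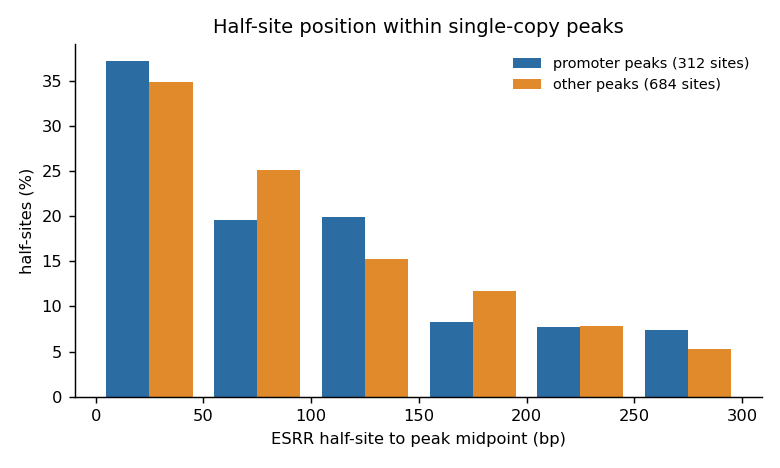
Percent of ESRR half-sites (vertical axis, from 0) by distance to the peak midpoint in bins of 50 bp, in single-copy promoter peaks (312 sites) and other peaks (684 sites). Both classes are highest in the innermost bin and fall toward the edge of the peak.

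For promoter type, side of the start and CpG-island-like sequence, no difference in the share of promoter peaks with a half-site passed the test. The half-site was present in 26 of 41 bidirectional and 206 of 406 single promoters (63.4% and 50.7%; odds ratio 1.68, adjusted exact p = 0.25), in 57.1% of peaks upstream and 49.3% of peaks downstream of the start (odds ratio 1.36, adjusted p = 0.25), and in 50.5% of CpG-island-like and 53.4% of other promoter peaks (odds ratio 0.888, adjusted p = 0.67). The intervals are wide for the bidirectional class, from 48.1 to 76.4%, and these p-values do not show that the shares are equal.

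Base composition, taken over the whole width of each peak, differed between promoter peaks and other peaks. CpG-island-like sequence made up 46.9% of promoter peaks and 2.60% of other peaks (odds ratio 33.1, adjusted exact p = 2.1e-88), and the median GC content was 56.6% and 48.1%. The promoter windows of all protein-coding genes had 47.3% CpG-island-like sequence, close to the bound promoters. Promoter peaks were taken by distance to a start site. This comparison and that of short sequences below therefore do not separate ESRRA binding from nearness to a start.

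Of 18 short sequences matched on both strands, 11 differed between promoter peaks and other peaks (Fisher's exact test, Benjamini-Hochberg adjusted over the 18), 5 being more frequent at promoters and 6 less. With multi-copy peaks included, 11 also passed, with 7 more frequent and 4 less. More frequent were the GC box of SP and KLF factors, GGGCGG (52.7% against 14.3%), the ETS sequence CCGGAAG (17.7% against 5.08%), the YY1 sequence AAGATGGCG (4.90% against 0.355%), the CREB sequence TGACGTCA (2.56% against 0.709%) and the NRF1 sequence GCGCATGCG. The last was present in 2.13% of promoter peaks and 0 of 846 others, which allows a share of up to 0.355% by a limit of 3 counts and 0.452% by the upper Wilson bound. ETS, YY1, CREB and NRF1 sites are known at promoters of nuclear genes for mitochondrial proteins. Windows at the 5′ ends of all protein-coding genes, however, held them in 15.6%, 3.11%, 2.77% and 2.56%. The interval of the promoter peaks included that share for ETS, CREB and NRF1 and lay above it for YY1 (3.29 to 7.25%).

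Less frequent at promoters were sequences of factors of the intestinal epithelium. The GATA sequence AGATAA was in 17.1% of promoter peaks and 34.3% of others, HNF1 GTTAAT in 11.5% and 19.4%, CDX TTTATGG in 5.12% and 9.34%, and HNF4 CAAAGTCCA in 1.07% and 4.02%. AP-1 TGACTCA (11.7% and 16.5%) and TATAAA (19.4% and 31.7%) followed the same direction. In the windows of all protein-coding genes the GC box had a share of 54.9%, ETS 15.6%, GATA 17.9% and HNF1 11.0%. These values are near those of the bound promoters, whereas AAGGTCA, at 7.82%, is not. The comparison with gene windows is a description without a test, since the bound promoters are part of those windows.

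**Figure D5:**
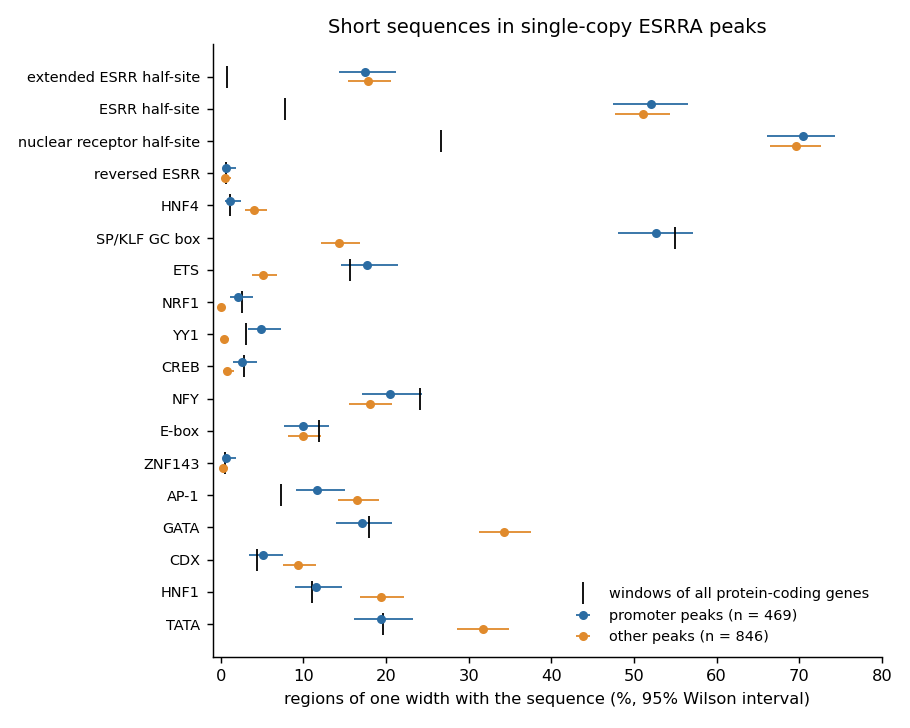
Percent of 0.601 kb regions with each of 18 short sequences, named by the factor (horizontal axis, bars are 95% Wilson intervals), in single-copy promoter peaks (blue), other peaks (orange) and windows at all protein-coding genes (black ticks). Promoter peaks exceed the gene windows for the top 3 rows, the ESRR and nuclear receptor sequences, and overlap or lie near the ticks for most others.

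Some bound starts belonged to microRNAs. Of the microRNA genes in reach of a promoter peak, 5 matched a RefSeq entry by symbol. One peak, chr6:124667676-124668276, covered the start of Mir141, 27 bp from its midpoint, and lay 432 bp from that of Mir200c, and it held 2 ESRR half-sites. Both microRNAs belong to the miR-200 family, known for keeping the epithelial state. At the pair Mir194-2 and Mir192, microRNAs abundant in gut epithelium, separate peaks lay 817 bp upstream and 908 bp downstream of the annotated starts, and neither held a half-site. The annotated start of a microRNA is that of its hairpin and not of the primary transcript. The mature sequences from RefSeq (GRCm38.p6) are shown with the seed, bases 2 to 8, in capitals, and none of these seeds is shared.
miR-141-3p: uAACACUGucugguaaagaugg
miR-200c-3p: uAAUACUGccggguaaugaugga
miR-192-5p: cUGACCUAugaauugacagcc
miR-194-5p: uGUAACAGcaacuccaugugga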

How the data were processed

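ESRRA ChIP-seq was carried out on villus cells in 2 libraries, with 1 input library. Per the methods and labels, the authors checked reads with FastQC 0.11.3, aligned them to mm9 with Bowtie2 2.2.6, merged the ChIP libraries with SAMtools 0.1.19 and called peaks with MACS2 at a p-value of 1e-05. deepTools 2.4.2 is also named. The deposited values are peak starts and ends in bp and nothing else. Any excluded regions, and how peaks came to be 0.601 kb wide, are not given in the sources used here.

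Pooling hides peaks specific to one library and leaves read depth per sample unknown from this list. Start sites came from GENCODE M1 on NCBIM37, the same build as mm9, over 19 autosomes, X and Y. Members were peaks whose midpoint lay within 1 kb of any start. Motifs were matched exactly on both strands, where AAGGTCA is part of TCAAGGTCA and AGGTCA of both. Gene windows reached 300 bp to each side of the 5′ end. Shares have 95% Wilson intervals. Differences between classes were tested with Fisher's exact test (two-sided), Benjamini-Hochberg adjusted over 7 comparisons, over 18 motifs, or over the 5 added comparisons. Peaks, not animals, were the units. The functions were tested on simulated data. Python 3.11.15, numpy 2.4.6, pandas 2.3.3, scipy 1.17.1 and numba 0.67.0 were used.

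The members, the 13 gene lists and the motifs were chosen with earlier results of these data known. Another 6 lists were added after the bound genes were seen. Of each list up to 4 bound genes were taken for full description, those with TCAAGGTCA first, then AAGGTCA, then the shortest distance. Also described were Abhd11, Cox7a2, Esrra, the 10 peaks with TCAAGGTCA nearest the midpoint, and the extremes of sites, genes, distance and copy number. Other genes were named after their values were seen. The symbol Ndufb1 was not matched. Alternatives varied distance, start sites, copy number, motif and peak part. A few of the genes these rules take are not reported here.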

Additional observations from a re-analysis of the deposited data

How the results depend on the processing

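Of 57 alternative values, 45 kept their direction and side of the threshold where there was a test, stayed within 1.5 times the reported count, or stayed within the interval of the reported share. Among these, promoter peaks numbered 349 within 500 bp and 608 within 2 kb, protein-coding genes 337 within 500 bp, and the bidirectional odds ratio was 1.23 with protein-coding start sites. The motifs past the threshold split into 7 higher and 4 lower with multi-copy peaks included, and 5 and 5 in 3 other settings. The number of promoter peaks was 244 when a start site had to lie inside the peak. The share upstream was 28.7% with 5′ ends alone, and the bidirectional share was 6.09% with protein-coding start sites. The AAGGTCA odds ratio of promoter against other peaks was 1.42 with multi-copy peaks included (exact p = 0.0013), 0.975 for TCAAGGTCA and 0.955 in the central bases of the peak, the last 2 without a call. For the share of half-sites near the midpoint the odds ratio turned to 0.888 within 100 bp and to 0.950 for TCAAGGTCA. It was 0.971 for TCAAGGTCA in bidirectional against single promoters and 1.12 for CpG-island-like against other promoter peaks in the central bases, and none of these passed the threshold. Upstream against downstream peaks gave 1.54 (exact p = 0.042, unadjusted) with protein-coding start sites. The odds ratio for a neighbour within 30 kb was 0.977 with multi-copy peaks included. In each case the cause was not tested.

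The count of oxidative phosphorylation genes was 43 within 500 bp, 47 within 2 kb, 44 with 5′ ends alone and 46 without multi-copy peaks, which were alternatives chosen after seeing the data. Leaving out each replicate and a stricter p-value were not run, since the merged list holds no values per library and no score. No paired analysis was possible because the 2 ChIP libraries were merged into 1 list. Depth limits cannot be stated for single peaks.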

Other observations

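Another 6 gene families were counted after the bound genes had been seen, so their shares are descriptions. Mitochondrial protein import had a promoter peak at 7 of 32 genes (21.9%), 6 of them with AAGGTCA and 3 with TCAAGGTCA. The extended site was present at Timm10, Timm8b and Hspa9, which encode small import chaperones and the matrix chaperone mortalin. Samm50 and Mtx2, of the outer membrane sorting machinery, and Chchd4, the oxidoreductase of the intermembrane space, had a half-site, and Oxa1l, the inner membrane insertase, did not.

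Mitochondrial carriers had 3 of 44 genes. Slc25a5, an ADP/ATP carrier, and Slc25a39 had TCAAGGTCA, with midpoints 305 and 136 bp downstream of the start, and the phosphate carrier Slc25a3 had no half-site. Respiratory chain assembly factors had 2 of 17, Cox10 and Cox11, both at bidirectional promoters with a half-site. Peroxisome biogenesis had 3 of 17, Pex5 with 2 extended sites, Pxmp3 with 2 half-sites and Pex10 with none.

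Proteasome subunits had 1 of 39 genes (2.56%), Psma6. Histone genes had 8 of 67 (11.9%), in 6 peaks that were all CpG-island-like, and 1 of these peaks, at Hist1h1c, held AAGGTCA. The peak at Hist1h2bc and Hist1h2ac had a median of 6.0 copies per 24-base word. The median was 3.0 at the Hist2h3c1 and Hist2h2aa1 peak and at the Hist2h2aa2 peak, and 2.0 at Hist1h4n.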
